A study of Mus musculus with 34 samples.

Results

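Genes of 3 enzyme families that conjugate drugs, hormones and waste products in liver were examined for binding of the deacetylase HDAC3 and the transcription factors PROX1 and HNF4α. Protein-coding genes of the mouse genome mm9 were taken when their symbol started with Ugt, Sult or Gst followed by a digit, where Gst stands for the a, k, m, o, p, t and z classes. This gave 60 of 22380 protein-coding genes, of which 21 were Ugt, 17 were Sult and 22 were Gst genes. The Gst genes include Gstm2-ps1, which the annotation lists as protein-coding although its symbol is that of a pseudogene. Many of the genes sit in tandem clusters, so that their windows merged into 33 loci, of which 23 hold a single gene.

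ChIP-seq of HDAC3 and PROX1 was made in 3 libraries each from livers labelled Control, and of HNF4α in 2 libraries from livers labelled HNF4A_floxed, all from male C57B/6 mice aged 10 weeks and taken at zeitgeber time 10. In the study's methods the Hnf4α floxed controls carry the floxed alleles without deletion, and the control virus expresses GFP from the hepatocyte promoter TBG. The replicates of each factor were pooled before peaks were called against IgG, which left 1 peak list per factor. The lists hold 21247 HDAC3, 27423 PROX1 and 24253 HNF4α peaks, carry no value per liver and no read counts, and so give neither a spread between livers nor a depth per library. The HNF4α list thus came from livers of another label than the HDAC3 and PROX1 lists.

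Conjugation makes small lipophilic molecules soluble enough to be carried into bile or urine. UDP-glucuronosyltransferases (Ugt) attach glucuronic acid, cytosolic sulfotransferases (Sult) attach a sulfonate group, and glutathione S-transferases (Gst) attach the tripeptide glutathione, mostly to electrophiles. HNF4α is a nuclear receptor that binds hepatocyte enhancers and promoters, PROX1 is a homeobox factor, and HDAC3 is the catalytic part of nuclear receptor corepressor complexes.

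The window of a gene ran from 50 kb before the transcription start site (TSS) through the gene and 2 kb beyond it, and a peak belonged to a gene when its centre fell in the window. A peak was co-bound when the HDAC3 and the PROX1 lists hold it with identical coordinates. The methods define shared peaks by their overlap and by signal for both factors, and in the lists the shared peaks appear with the same positions. Other peaks are called PROX1-only or HDAC3-only. HNF4α was counted at a peak when a single HNF4α peak covered at least 50% of its 200 bp. A promoter peak was centred within 1 kb of the TSS, and peaks in several windows were counted once per family.

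The sequences of 10 co-bound peaks show the DNA that the binding calls refer to, on the forward strand of mm9. The following lie under the strongest HNF4α peak among the co-bound peaks of each family. Capitals mark a match, with at most 2 mismatches on either strand, to the HNF4 consensus, a 13 bp arrangement of 2 half-sites.
Ugt1a1 intron, chr1:90110260-90110459: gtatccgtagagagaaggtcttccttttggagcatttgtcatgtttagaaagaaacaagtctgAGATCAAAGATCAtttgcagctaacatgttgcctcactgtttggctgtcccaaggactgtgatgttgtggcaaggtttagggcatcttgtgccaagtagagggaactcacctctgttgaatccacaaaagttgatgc
Sult1a1 upstream, chr7:133832650-133832849: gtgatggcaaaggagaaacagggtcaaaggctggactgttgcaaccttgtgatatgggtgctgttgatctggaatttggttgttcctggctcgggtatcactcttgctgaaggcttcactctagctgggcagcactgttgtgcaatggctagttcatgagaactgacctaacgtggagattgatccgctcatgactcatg
Gsta1 upstream, chr9:78065017-78065216: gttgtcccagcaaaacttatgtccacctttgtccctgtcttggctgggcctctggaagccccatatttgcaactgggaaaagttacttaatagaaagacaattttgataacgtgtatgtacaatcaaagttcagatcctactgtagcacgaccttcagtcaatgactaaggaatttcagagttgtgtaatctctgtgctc
The Ugt1a1 peak lies in an intron 1.83 kb inside the gene, and its HNF4α peak has a score of 130.5, the authors' HOMER peak score. The upstream peaks of Sult1a1 and Gsta1 are intergenic and have scores of 108.4 and 92.8. Only the Ugt1a1 peak of these holds a match.

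The next sequences are the pair of co-bound promoter peaks with the highest HNF4α scores in each family, among those counted as covered by HNF4α, and the peak of Ugt3a1, whose neighbour Ugt3a2 is its closest copy. Capitals mark the HNF4 consensus again, except in the Ugt3a1 and Ugt3a2 lines, where they mark the HNF1 palindrome, the inverted repeat bound by the hepatocyte factor HNF1, with at most 2 mismatches.
Ugt3a2 promoter, chr15:9265207-9265406: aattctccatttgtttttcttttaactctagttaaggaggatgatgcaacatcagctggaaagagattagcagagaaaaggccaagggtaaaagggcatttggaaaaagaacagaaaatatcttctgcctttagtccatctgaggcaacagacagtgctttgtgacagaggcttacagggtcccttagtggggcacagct
Ugt2b5 promoter, chr5:87569311-87569510: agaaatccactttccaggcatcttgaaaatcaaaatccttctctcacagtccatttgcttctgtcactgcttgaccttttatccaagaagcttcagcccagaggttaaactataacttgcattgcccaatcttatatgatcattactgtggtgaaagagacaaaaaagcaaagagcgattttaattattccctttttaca
Sult1a1 promoter, chr7:133819873-133820072: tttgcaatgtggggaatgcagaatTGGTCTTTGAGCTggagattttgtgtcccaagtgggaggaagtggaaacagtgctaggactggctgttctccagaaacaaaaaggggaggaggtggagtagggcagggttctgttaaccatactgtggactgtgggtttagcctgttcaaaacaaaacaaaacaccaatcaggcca
Sult1b1 promoter, chr5:87967151-87967350: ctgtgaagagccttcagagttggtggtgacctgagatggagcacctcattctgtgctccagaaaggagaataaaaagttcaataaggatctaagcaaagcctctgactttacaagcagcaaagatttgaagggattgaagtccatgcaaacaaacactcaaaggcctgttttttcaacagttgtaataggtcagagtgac
Gsta2 promoter region, chr9:78202535-78202734: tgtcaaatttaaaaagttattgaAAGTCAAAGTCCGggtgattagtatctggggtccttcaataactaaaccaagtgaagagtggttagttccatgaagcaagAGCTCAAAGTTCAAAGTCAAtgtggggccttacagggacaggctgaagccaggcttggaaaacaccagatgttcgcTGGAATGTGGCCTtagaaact
Gsta3 promoter, chr1:21230395-21230594: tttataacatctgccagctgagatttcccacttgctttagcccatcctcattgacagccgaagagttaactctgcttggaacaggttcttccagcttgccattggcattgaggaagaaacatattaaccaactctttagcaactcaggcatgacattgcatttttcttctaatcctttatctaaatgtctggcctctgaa
Ugt3a1 promoter, chr15:9209431-9209630: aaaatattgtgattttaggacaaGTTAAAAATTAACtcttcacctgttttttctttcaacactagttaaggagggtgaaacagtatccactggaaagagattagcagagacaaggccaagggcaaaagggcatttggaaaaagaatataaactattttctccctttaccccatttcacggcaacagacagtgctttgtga
The HNF4α scores of these peaks are 60.3 for Ugt3a2, 51.8 for Ugt2b5, 69.7 for Sult1a1, 65.0 for Sult1b1, 88.6 for Gsta2, 37.2 for Gsta3 and 36.3 for Ugt3a1. The Gsta2 peak holds 4 HNF4 consensus matches, of which 2 overlap in 1 run of capitals. The Sult1a1 promoter holds 1 match on the reverse strand, and the other promoters shown hold none. The Ugt3a1 and Ugt3a2 peaks were identical at 141 of 165 locally aligned bases (85.5%). The HNF1 palindrome matched once in the Ugt3a1 window, with 1 mismatch, near its start, and the windows of the pair begin at different distances from the TSS. Between the promoter peaks of Ugt2b36 and Ugt2b5, 122 of 149 aligned bases were identical (81.9%).

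Most genes of the Ugt and Gst families and about as many Sult genes as not had a co-bound peak in their window. The counts were 19 of 21 Ugt, 9 of 17 Sult and 18 of 22 Gst genes, beside 38.4% of all protein-coding genes. At least 5 co-bound peaks were found for 12 Ugt, 2 Sult and 10 Gst genes (8.32% of all genes), and at least 10 for 4 Ugt and 3 Gst genes (1.38% of all genes). The median gene had 5 co-bound peaks among Ugt, 1 among Sult and 4 among Gst genes, and 0 among all genes. Median window lengths were 83.4, 81.1 and 58.5 kb, beside 67.4 kb for all genes. The 4 Ugt genes with at least 10 co-bound peaks had longer windows, from 176.9 kb (Ugt1a7c) to 215.6 kb (Ugt1a10). The 3 such Gst genes had windows from 57.7 kb (Gstm1) to 79.0 kb (Gstm3). The part of window length in these counts was not tested. A co-bound peak with HNF4α was in the window of 19 Ugt, 8 Sult and 17 Gst genes (31.1% of all genes). These counts over genes are not independent, since neighbours share peaks: 60 of the 116 co-bound peaks lay in the windows of several members.

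**Figure D1:**
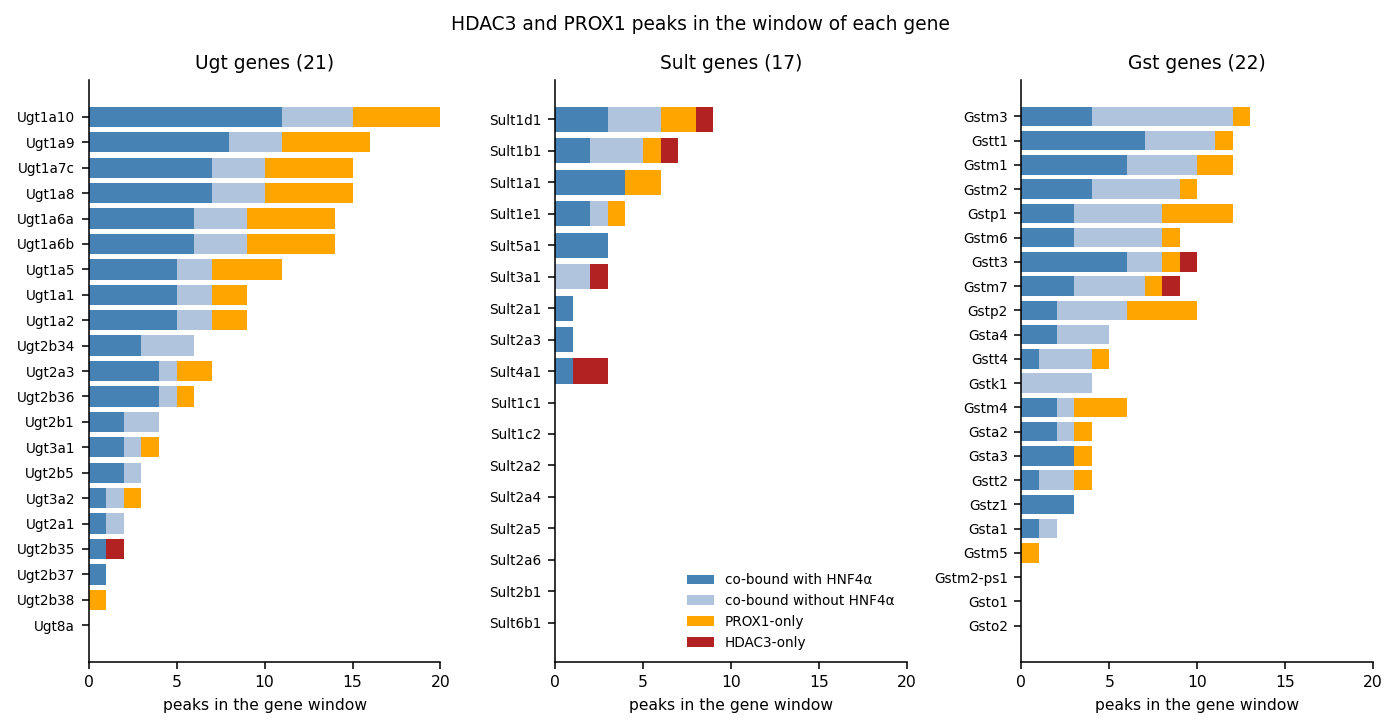
Peaks of the HDAC3 and PROX1 lists in the window of each gene (x axis, number of peaks; 1 bar per gene, 1 panel per family), coloured by class. The bar of Ugt1a10 is the longest, with 15 co-bound and 5 PROX1-only peaks. No peak of any of the 3 lists was found for 11 genes (44.7% of all genes). The bar of Sult1c2, which has an HNF4α peak only, is empty too.

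Counted once, the co-bound peaks numbered 41 in Ugt, 19 in Sult and 57 in Gst windows, and 1 of them, at the Sult1b1 promoter, lay in windows of both Ugt and Sult genes. Per megabase of merged window this is 40.9 for Ugt, 14.4 for Sult and 62.3 for Gst, beside 11.0 over the windows of all protein-coding genes. Without the Ugt1a locus 26 of the Ugt peaks remained, without the Sult1b1, Sult1d1 and Sult1e1 locus 12 of the Sult peaks, and windows from 10 kb upstream held 27 of the Ugt peaks. PROX1-only peaks numbered 11, 4 and 13, and HDAC3-only peaks 1, 4 and 2. A PROX1-only peak was in the window of 14 Ugt, 4 Sult and 15 Gst genes (25.2% of all genes), and an HDAC3-only peak in that of 1, 4 and 2 genes (7.4% of all genes). HNF4α peaks were more frequent than co-bound peaks in each family, at 49, 22 and 58 distinct peaks, and were in the window of 20 Ugt, 9 Sult and 18 Gst genes (49.7% of all genes).

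Most co-bound peaks lay outside promoters, but a larger share lay in promoters than among co-bound peaks in general. By their centres, 66 of 116 were intergenic, 40 intronic and 10 exonic. Of the 116, 23 were promoter peaks of a member, beside 1186 of all 20039 within 1 kb of any TSS. The median distance to the closest member's TSS was 6.29 kb for Ugt, 5.81 kb for Sult and 5.21 kb for Gst. For 94 of the 116 the nearest protein-coding TSS was that of a member of the same family, and the rest were nearer to another gene, such as 5 upstream of Ugt1a10 that were nearer to Usp40.

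HNF4α coverage was higher in the Ugt and Sult than in the Gst families, but no difference passed the test. It was present at 29 of 41 co-bound Ugt peaks (70.7%, 95% CI 55.5 to 82.4), 14 of 19 Sult peaks (73.7%, 51.2 to 88.2) and 30 of 57 Gst peaks (52.6%, 39.9 to 65.0), beside 61.3% of all co-bound peaks. The intervals are Wilson intervals that cover counting error over peaks only. With 75% coverage required, which the narrower HNF4α peaks cannot reach, the shares were 41.5%, 47.4% and 29.8%. With HNF4α peaks scored above the list median they were 41.5%, 36.8% and 24.6%. The Ugt share exceeded the Gst share by 18.1 percentage points (95% CI -1.51 to 35.4), with an adjusted p of 0.537 by the two-sided Fisher's exact test over 6 pairwise tests. When any overlap with an HNF4α peak was counted, the difference was 28.5 points and passed, with an adjusted p of 0.0272 by the same exact test. It passed in no other setting, and the adjustment covered only the 6 tests within a setting. Neighbouring peaks are not independent, which this test does not allow for. The Sult share exceeded the Gst share by 21.1 points (-4.61 to 40.3, adjusted exact p = 0.537). Ugt minus Sult was -2.22 points (-23.9 to 23.8, adjusted exact p = 1.0), and its sign turned when any overlap counted (4.72) or only HNF4α peaks scored above the list median (6.67).

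The split between co-bound and single-factor peaks did not separate the families either. Co-bound peaks made up 77.4% of 53 Ugt peaks (95% CI 64.5 to 86.5), 70.4% of 27 Sult peaks (51.5 to 84.1) and 79.2% of 72 Gst peaks (68.4 to 86.9), beside 70.0% of all peaks. The differences were 7.69 points for Ugt minus Sult, -1.81 for Ugt minus Gst and -8.80 for Sult minus Gst, with intervals from -11.6 to 29.1, -16.9 to 12.3 and -29.2 to 8.67. Their adjusted p values were 0.875, 0.995 and 0.849 by Fisher's exact test. At PROX1-only peaks HNF4α was present at 5 of 11 in Ugt, 1 of 4 in Sult and 5 of 13 in Gst windows, beside 36.7% of all PROX1-only peaks.

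**Figure D2:**
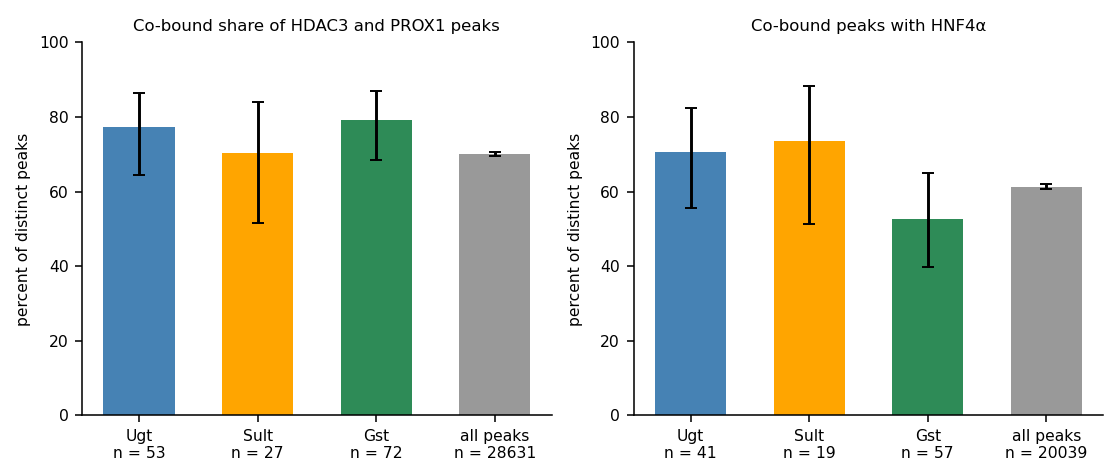
Share of distinct HDAC3 and PROX1 peaks that were co-bound (left, percent) and share of co-bound peaks covered by HNF4α (right, percent), by family and for all peaks of the lists; error bars are 95% Wilson intervals. The Gst bar on the right, at 52.6%, is the lowest, and its interval from 39.9 to 65.0 overlaps those of Ugt and Sult.

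The scores of HNF4α peaks spanned a similar range in the families. The median was 37.7 over 49 Ugt peaks (range 21.7 to 130.5), 40.8 over 22 Sult peaks (20.7 to 108.4) and 39.4 over 58 Gst peaks (20.3 to 92.8), beside 41.9 over the whole list. The score of 130.5 in Ugt1a1 was above 99.8% of the list. HNF4α peaks that covered a co-bound peak had median scores of 51.8, 44.1 and 41.5. Those counted at no HDAC3 or PROX1 peak numbered 15, 6 and 23 and had medians of 34.9, 32.3 and 37.2. The latter include HNF4α peaks that overlapped such a peak by less than the coverage required, such as the one at the Ugt2b1 promoter. The same order held over the whole list, at 52.3 for those that covered a co-bound peak and 33.9 for those counted at none.

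**Figure D3:**
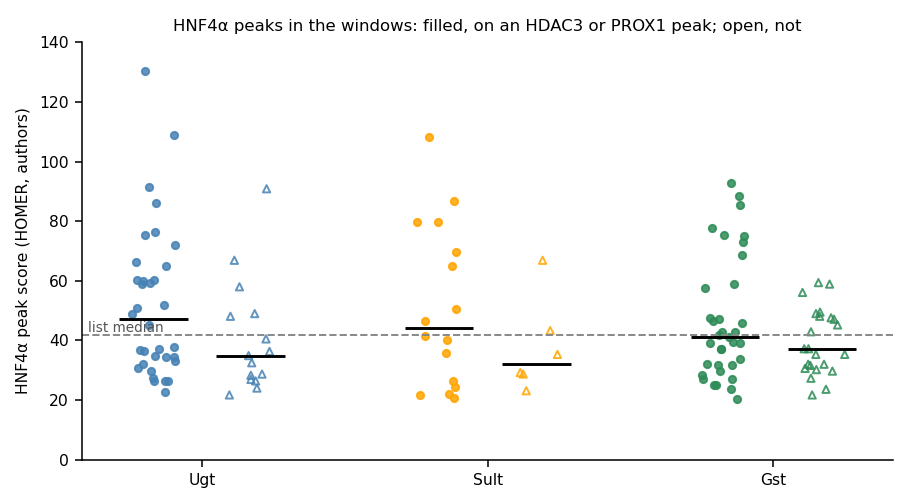
Score of each HNF4α peak (y axis, authors' HOMER score) in the windows of each family; filled circles cover at least 50% of an HDAC3 or PROX1 peak, open triangles do not, black lines are medians and the dashed line is the list median of 41.9. The highest points are 130.5 for Ugt, 108.4 for Sult and 92.8 for Gst.

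The Ugt1a locus held the most peaks among Ugt loci. Its 9 genes share the 3′ part, so their windows nest. In the annotation each has a start of its own, except Ugt1a6a and Ugt1a6b, which start at the same position. Within 216.6 kb there were 15 co-bound peaks, 11 of them with HNF4α, and 5 PROX1-only peaks. Ugt1a10, which has the longest window, counted all 15 co-bound peaks, Ugt1a9 11, Ugt1a8 and Ugt1a7c 10 each, and Ugt1a6a and Ugt1a6b 9 each. Ugt1a5, Ugt1a2 and Ugt1a1, the bilirubin-conjugating enzyme, counted 7 each.

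Of the 15 co-bound peaks, 6 lay upstream of Ugt1a10 and 7 from the Ugt1a5 promoter onward. A cluster of 4 co-bound peaks lay between 39.8 and 47.5 kb upstream of Ugt1a10, and one of its HNF4α peaks had a score of 108.8. Near Ugt1a1, co-bound peaks were centred 1.29 and 1.83 kb inside the gene, with HNF4α scores of 76.3 and 130.5. A further intronic peak, 13.9 kb downstream of the Ugt1a5 TSS, had a score of 86.2. Ugt1a5 was the 1 gene of the locus with a co-bound promoter peak, at 93 bp upstream and untouched by HNF4α. An HNF4α peak of score 32.5, centred 140 bp inside the gene, lay close by without touching it. Beside the co-bound promoter peak lay PROX1-only peaks at 467 and 681 bp, of which the latter was covered by an HNF4α peak of score 45.2. When every protein-coding transcript start counted as a TSS, an alternative chosen after seeing the data, the Ugt genes with a co-bound promoter peak rose from 9 to 10.

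The Ugt2 genes, whose products conjugate steroids, bile acids and drugs, had a co-bound promoter peak at 6 of 9 genes, and the Ugt1a genes, which share peaks and in part a TSS, at 1 of 9. This difference was not tested. Promoter peaks were present for 9 Ugt, 5 Sult and 8 Gst genes, beside 5.05% of all genes. All 9 Ugt promoter peaks were centred within 100 bp of the TSS. HNF4α covered the promoter peaks of Ugt2b35, Ugt2b36, Ugt2b5 and Ugt2a3 with scores of 22.6, 34.4, 51.8 and 30.6. At Ugt2b1 an HNF4α peak of score 90.9 covered 36.5% of the promoter peak, and at Ugt2b34 one of score 24.0 covered 46.5%, both under the 50% required.

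In total the Ugt2 windows held 22 co-bound peaks, 15 of them with HNF4α (68.2%, 95% CI 47.3 to 83.6). Ugt2b34 counted 6, Ugt2b36 and Ugt2a3 5 each, Ugt2b1 4, Ugt2b5 3, Ugt2a1 2, and Ugt2b35 and Ugt2b37 1 each. The strongest HNF4α peak of the group, score 91.4, lay at -3.97 kb from the TSS of Ugt2b34, on a co-bound peak. The Ugt2b36 intron held a co-bound peak at 1.26 kb with a score of 72.1. Ugt2b38 had no co-bound peak, and 1 PROX1-only peak lay 1.66 kb upstream of it.

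Of the remaining Ugt genes, Ugt3a1 and Ugt3a2, whose human counterparts use other sugar donors than glucuronic acid, had 3 and 2 co-bound peaks. Both carried a co-bound and a PROX1-only peak in the promoter, and both co-bound promoter peaks were covered by HNF4α. A PROX1-only promoter peak was found for 4 of 60 members (6.67%), which were 3 Ugt genes and Sult1a1, beside 1.92% of all genes. Ugt8a, which makes galactosylceramide for myelin, had no peak of any list, as did 44.7% of all genes.

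**Figure D4:**
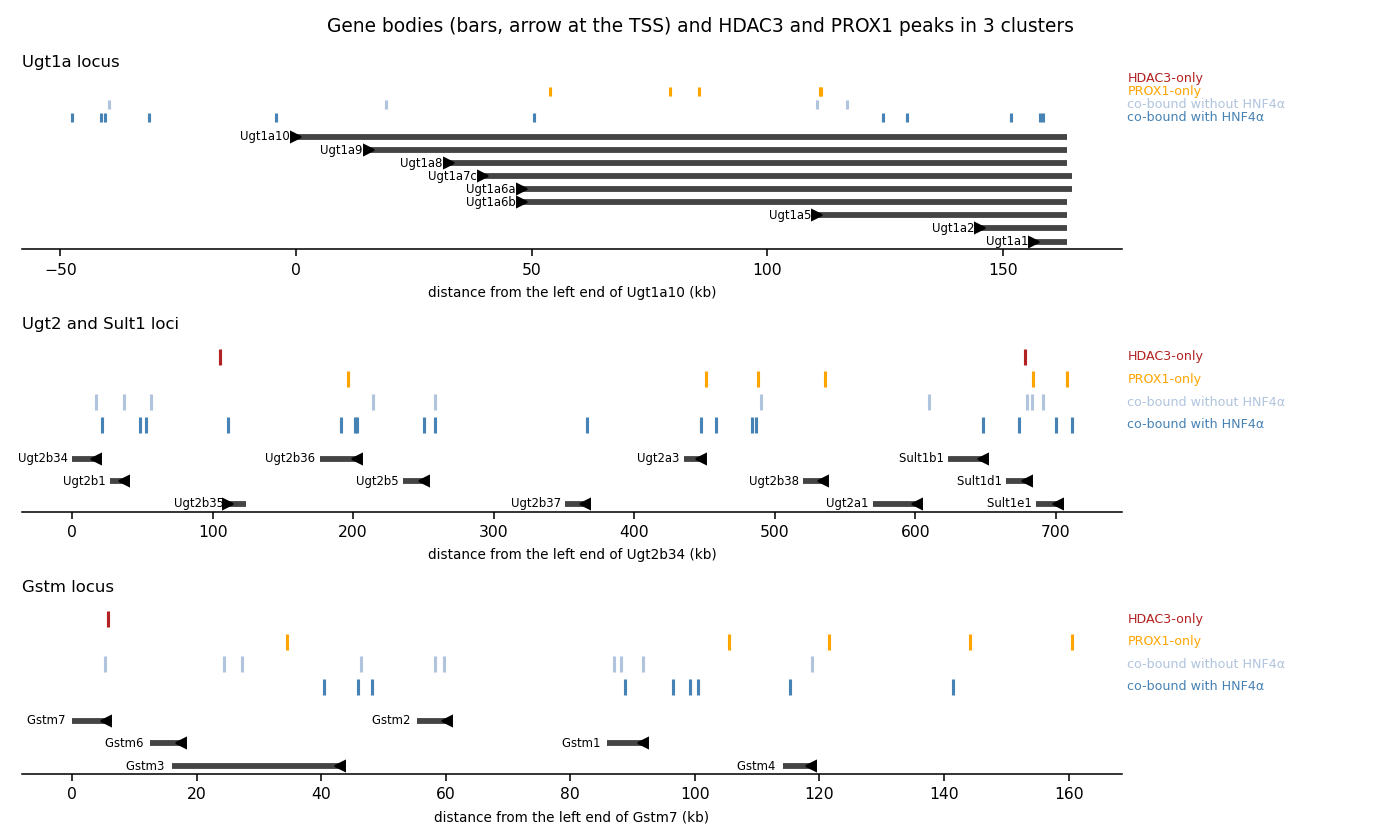
Gene bodies (dark bars, arrowhead at the TSS) and HDAC3 and PROX1 peaks (vertical ticks, 1 row per class) in the Ugt1a, the Ugt2 with Sult1b1, Sult1d1 and Sult1e1, and the Gstm clusters; x axis, distance in kb from the left end of the first gene. Of the 15 co-bound ticks at Ugt1a 6 lie left of the Ugt1a10 arrowhead, and 6 of 9 Ugt2 genes have a co-bound tick at their arrowhead.

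Peaks of the Sult family were concentrated in a few genes. Sult1a1, which sulfonates phenols, had 4 co-bound peaks, all covered by HNF4α, at 27 bp, 4.90, 12.8 and 14.5 kb upstream, with scores of 69.7, 79.6, 108.4 and 79.6. It also had PROX1-only peaks 320 bp and 2.69 kb upstream. Sult5a1 had 3 co-bound peaks, all with HNF4α, of which the farthest, 23.2 kb upstream, had a score of 86.7. Its promoter peak at 765 bp upstream had a score of 35.8.

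The genes Sult1b1, Sult1d1 and Sult1e1, which act on phenols, catecholamines and estrogens, adjoin the Ugt2 genes on chromosome 5. They shared 7 co-bound peaks, 4 of them with HNF4α (57.1%, 95% CI 25.0 to 84.2). Sult1d1 counted 6, Sult1b1 5 and Sult1e1 3. The Sult1b1 promoter peak was covered by HNF4α with a score of 65.0, whereas the Sult1d1 promoter peak, 28 bp inside the gene, was covered over 22.0% only.

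The hydroxysteroid and bile acid sulfotransferases Sult2a1 to Sult2a6 had a co-bound peak at 2 of 6 genes, beside 38.4% of all genes. Their merged windows spanned 614.1 kb and held 2 co-bound peaks, 1 in an intron of Sult2a1 and 1 at 114 bp upstream of Sult2a3, with HNF4α scores of 21.7 and 24.5. These were the only HNF4α peaks in those windows, both near the lowest score of the list, 20.3. The genes Sult2a2, Sult2a4, Sult2a5 and Sult2a6 had no peak of any list, as did 44.7% of all genes. Of the 32-base words in the Sult2a windows, between 33.2% (Sult2a2) and 69.6% (Sult2a6) occurred once on the chromosomes of mm9, beside 56.9% to 94.8% for the other members. Reads from repeated words may not be placed uniquely, and how the authors treated them is not given in the sources used here. The part of this in the counts of these genes was not tested.

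The other Sult genes had a mixed pattern. Sult3a1 had 2 co-bound peaks and 1 HDAC3-only peak and no HNF4α peak in its window. Sult4a1, a sulfotransferase mainly of brain, had 1 co-bound and 2 HDAC3-only peaks, which lay upstream, next to or within Pnpla5. Sult1c2 had 1 HNF4α peak of score 23.1 and no HDAC3 or PROX1 peak. Sult1c1, Sult2b1 and Sult6b1 had no peak of any list. The Sult1c1 window was 85.2% unique on the chromosomes but 0.0% unique once the unplaced scaffolds of the assembly were counted. Which sequences the reads were aligned to is not given either, and the part of this in the missing peaks was not tested.

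**Figure D5:**
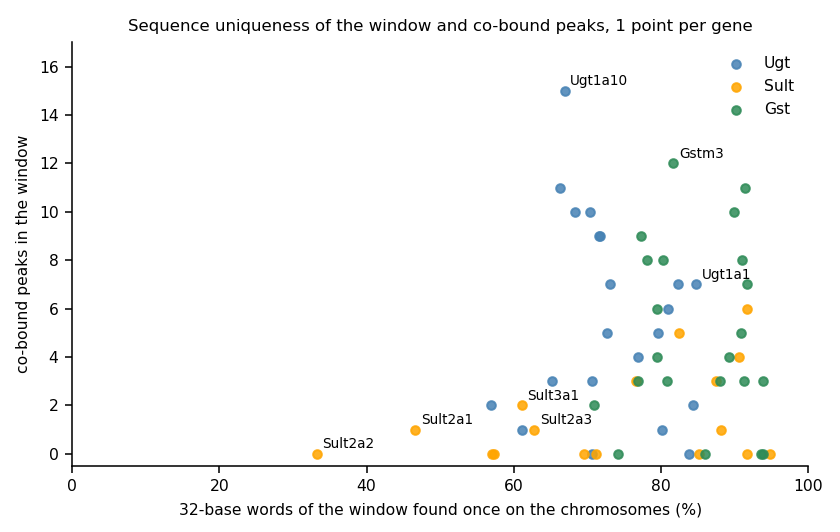
Co-bound peaks in the window of each gene (y axis) against the share of its 32-base words found once on the chromosomes of mm9 (x axis, percent); 1 point per gene, coloured by family. The 6 Sult2a genes lie between 33.2% and 69.6% with 0 or 1 co-bound peak, and Ugt1a10 has 15 at 66.9%. Window lengths differ, at 215.6 kb for Ugt1a10 and at most 131.9 kb (Sult2a4) for the Sult2a genes.

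Among Gst genes the mu class had the most peaks. In the 170.6 kb from Gstm7 to Gstm4, 6 genes shared 19 co-bound peaks, of which 9 were covered by HNF4α (47.4%, 95% CI 27.3 to 68.3), and 5 PROX1-only peaks. Gstm3 counted 12, Gstm1 10, Gstm2 9, Gstm6 8, Gstm7 7 and Gstm4 3. Promoter peaks were found at Gstm7, Gstm2, Gstm1 and Gstm4, and 0 of the 4 were touched by an HNF4α peak. At Gstm1 the nearest HNF4α-covered peaks were 2.79 kb inside and 4.88 kb upstream, with scores of 25.0 and 37.2. The Gstm7 promoter held in addition the only HDAC3-only promoter peak of the members, at 224 bp upstream (0.961% of all genes). The highest HNF4α score in this cluster was 49.0, at a peak within 1 kb of the Gstm4 TSS that does not touch the co-bound promoter peak. Gstm5, farther off, had 1 PROX1-only peak, and Gstm2-ps1, on another chromosome, had none.

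The alpha class, which also reduces lipid peroxides, had the 2 highest HNF4α scores of the Gst genes, 92.8 and 88.6, while its median score of 40.1 was below the 47.1 of the pi class. Gsta4, which conjugates the lipid aldehyde 4-hydroxynonenal, counted 5 co-bound peaks, Gsta2 and Gsta3 3 each and Gsta1 2. All 3 co-bound peaks of Gsta3 were covered by HNF4α, with scores of 75.4, 73.0 and 37.2. Gsta2 had co-bound peaks 32 bp upstream and 960 bp inside the gene, with HNF4α scores of 31.6 and 88.6. Of the Gsta1 peaks, one is the promoter peak of Gsta4 and the other is the upstream peak printed above, with a score of 92.8. The Gsta4 promoter peak, 34 bp inside the gene, was untouched by HNF4α although it holds an HNF4 consensus match.

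The co-bound peaks of the theta and pi classes lay mostly away from promoters. Among all members 23 of 116 were promoter peaks, beside 1186 of all 20039 within 1 kb of any TSS. The 4 Gstt genes shared 11 co-bound peaks, 7 of them with HNF4α. Gstt1 counted all 11, Gstt3 8, Gstt4 4 and Gstt2 3, and the intron of Gstt1 held the peak with the highest score, 85.3. Gstt2 alone had a co-bound promoter peak (5.05% of all genes), 601 bp upstream and untouched by HNF4α. Gstp1 and Gstp2 shared 8 co-bound peaks, of which Gstp1 counted 8 and Gstp2 6, and 3 of them had HNF4α. Of their 4 PROX1-only peaks, 3 were covered by HNF4α, and 11 HNF4α peaks lay in the window, with a top score of 59.4. No Gstp promoter was co-bound. An HNF4α peak lay in the promoters of Gstt2, Gstt3 and Gstp1 (9.38% of all genes).

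Gstz1, the maleylacetoacetate isomerase of tyrosine breakdown, had 3 co-bound peaks, all with HNF4α. Gstk1, a class found in mitochondria and peroxisomes, had 4 co-bound peaks and no HNF4α peak in its window, so that 0 of 4 were covered (95% CI 0.0 to 49.0). Gsto1 and Gsto2, of the omega class that reduces dehydroascorbate, had no peak of any list.

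At promoters, the families ranked as they did over all co-bound peaks. HNF4α covered 6 of 9 Ugt (95% CI 35.4 to 87.9), 4 of 5 Sult (37.6 to 96.4) and 3 of 9 Gst promoter peaks (12.1 to 64.6), and 13 of 23 over all members. Of the 10 uncovered ones, 7 were untouched by HNF4α and 3 were touched over less than 50%. The intervals overlap widely, and this difference was not tested. An HNF4α peak was in the promoter of 9 Ugt, 5 Sult and 8 Gst genes (9.38% of all genes).

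The letters under the co-bound peaks were compared with those under all 20039 co-bound peaks, in the 200 bp windows and on both strands. The HNF4 consensus matched in 39.0% of Ugt (95% CI 25.7 to 54.3), 26.3% of Sult (11.8 to 48.8) and 24.6% of Gst windows (15.2 to 37.1), beside 31.2% of all. With at most 1 mismatch these shares were 2.44%, 0.0% and 5.26%, beside 7.15% of all. In 100 bp windows the Ugt share was 17.1%, beside 19.7% of all, so the Ugt share was above that of all co-bound peaks in the first setting and below it in both others. Members' windows with HNF4α held it in 27 of 72 cases (37.5%) and those without in 8 of 44 (18.2%), beside 41.4% and 15.1% over all co-bound peaks. TTGCNNAA, the core bound by C/EBP factors, was found in 26.7% of members' windows and 26.1% of all.

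Motifs of xenobiotic and redox sensors are of interest at these genes as background, since the antioxidant factor NRF2 and the aryl hydrocarbon receptor induce many of them. TGACNNNGC, the antioxidant response core, was in 11 of 57 Gst windows (19.3%, 95% CI 11.1 to 31.3), 2 of 41 Ugt windows and 0 of 19 Sult windows (0.0 to 16.8), beside 11.4% of all. The Gst windows with it included the promoter peaks of Gsta3 and Gstm2 and 3 peaks upstream of Gstp2. These 3 lay 4.02, 12.6 and 18.6 kb from the Gstp2 TSS, and the last 2 were nearer to BC021614. TNGCGTG, the core bound by the aryl hydrocarbon receptor, was in 8 of 116 members' windows (6.90%, 3.54 to 13.0), beside 1.88% of all. Of the 8, 4 were the promoter peaks of Ugt1a5, Sult1d1, Sult5a1 and Gstm2. That is 4 of 23 promoter peaks, beside 3.29% of 1186 co-bound peaks within 1 kb of any TSS. The HNF1 palindrome, with at most 2 mismatches, was in 10 of 116 (8.62%, 4.75 to 15.1), beside 4.71% of all. It was in 4 of 23 promoter peaks, those of Ugt1a5, Ugt3a1, Ugt2a3 and Sult1d1, beside 4.38% of 1186 co-bound peaks within 1 kb of any TSS. The HNF4 consensus was in 3 of the 23 (13.0%, 4.54 to 32.1), beside 30.2% of the 1186. These motifs were chosen with the peaks known, so the shares are descriptions, and a match is not a binding site.

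Genes that supply cofactors, conjugate by other routes or regulate the response to xenobiotics were also often co-bound. Of 30 such genes 27 had a co-bound peak in the window (38.4% of all genes), 12 had one in the promoter (5.05%) and 28 had an HNF4α peak in the window (49.7%). Of 10 cofactor genes 9 were co-bound, with 12 peaks each at Papss2, which makes the sulfonate donor, and Gclc, which catalyses the first step of glutathione synthesis, and 4 at Ugdh, which makes UDP-glucuronic acid. Of 14 other conjugation genes 12 were co-bound, with 10 peaks at the arsenic methyltransferase As3mt, 8 at Glyat and 7 at Baat, which conjugate acids with glycine and bile acids with taurine. Mgst2 and Nat1 had no peak of any list, and Slc35b2 had HNF4α peaks only. The 6 regulators had between 2 (Keap1) and 16 (Ppara) co-bound peaks, with 8 at the pregnane X receptor gene Nr1i2.

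The label of liver was checked with marker genes. All 10 hepatocyte markers had a co-bound peak, with a median of 6.5, beside 5 of 14 markers of other cell types that liver holds and 0 of 4 markers of other tissues. The share over all protein-coding genes was 38.4%, so the markers of other liver cell types were near it. Chromatin came from whole liver, so the cell type behind a peak cannot be told apart.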

How the data were processed

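ChIP-seq libraries were grouped by antibody and genotype as the labels give them. Per the study's methods, the authors used Bowtie 0.12.7 for alignment to mm9, removed duplicates, pooled replicates and called peaks with HOMER against IgG. They kept peaks more than 3-fold over input, with limits of 1.5 rpm for HDAC3 and 2 rpm for PROX1 and HNF4α. Co-bound peaks needed 50% overlap and 1 rpm of the other factor. The treatment of reads that map to several places is not given in the sources used here. The deposited lists give peak positions, and the HNF4α list also the HOMER score of each peak, whose scale the file does not state. The study also describes filtering HNF4α peaks on the knockout livers, and whether this list is the filtered one is not given in the sources used here. Empty lines, 3 per list for HDAC3 and PROX1, were left out.

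The members, the gene lists and the motifs were chosen with earlier results of these data known. Gene models were those of GENCODE vM1 on NCBIM37, which is mm9, and all peaks lay within its chromosomes. Genes described in full were those with a co-bound promoter peak, the 5 per family with the most co-bound peaks, and Ugt1a1, Sult1a1, Gstp1 and Gsta1. The other members are named with their counts. Families were compared with two-sided Fisher's exact tests over distinct peaks, with Benjamini-Hochberg adjustment over 6 tests. Peaks in windows of both families were left out of that pair. Neighbouring peaks are not independent and the tests measure no spread between livers. Aligned bases come from local alignments on either strand. The code was tested on simulated data. Tools were samtools 1.23.1 and, under Python 3.11.15, scipy 1.17.1, pandas 2.3.3, Biopython 1.88, pysam 0.24.0, numpy 2.4.6 and matplotlib 3.10.9. RNA-seq, H3K27Ac and knockout libraries were not analysed here.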

Additional observations from a re-analysis of the deposited data

How the results depend on the processing

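No paired analysis was possible because replicates were pooled before peak calling, which left 1 list per factor. Leaving out each replicate could not be run for the same reason. Read depth is unknown, so whether a missing peak reflects depth cannot be told apart from absence. Besides the alternatives below, 70 values, from 9 alternative settings and 1 chosen after seeing the data, kept their direction, their side of the threshold and, for counts, stayed within 1.5 times.

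With 75% coverage required, the HNF4α share of co-bound peaks was 41.5% in Ugt, 47.4% in Sult and 29.8% in Gst windows. The narrower HNF4α peaks cannot reach 75%. With only HNF4α peaks scored above the list median it was 41.5%, 36.8% and 24.6%. When any overlap counted, the Ugt share was 82.9% and Ugt minus Sult turned to 4.72 points. Ugt minus Gst was 28.5 points and passed the threshold, in this setting only. With scores above the median Ugt minus Sult turned to 6.67 points. A window from 10 kb upstream left 27 co-bound Ugt peaks. Leaving out the locus with the most peaks left 26 in Ugt (without Ugt1a) and 12 in Sult (without Sult1b1, Sult1d1 and Sult1e1). With at most 1 mismatch the HNF4 consensus matched in 2.44% of Ugt, 0.0% of Sult and 5.26% of Gst windows (7.15% of all co-bound peaks), and in 100 bp windows in 17.1% of Ugt (19.7% of all), which puts Ugt below all co-bound peaks. The cause of these shifts was not tested, except that fewer letters, peaks or loci could count by construction.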
